A study of Homo sapiens with 12 samples.

Results

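The genes described here are 49 genes of the lysosome, the acidic compartment in which cells break down material from the cell surface, from outside and from autophagy. The list was set by gene name and takes no value from the counts in its rule: 9 proteases, 10 glycosidases, 5 sulfatases (including the sulfamidase SGSH), 6 lipid and sphingolipid hydrolases with the activator precursor PSAP, 8 membrane proteins, channels and transporters, 7 genes of the proton pump, the transcription factors TFEB and TFE3, and GRN and SQSTM1. All 49 were matched to an Ensembl identifier among the 58735 genes of the counts. The sterol transporters NPC1 and NPC2 were not included. Reads per gene were counted in 12 libraries of polyA RNA from 2 human endometrial cell lines: HEC-1A (HEC1A in the labels), an epithelial line from an endometrial adenocarcinoma, and T-HESC (THESC in the labels), an endometrial stromal line of fibroblastic type immortalised with telomerase. Each line was exposed for 32 h to AG-205 at 15 µM or to the solvent DMSO alone, which made 4 groups of 3 libraries. AG-205 is a small molecule sold as a ligand of the membrane protein PGRMC1. According to the study, the cells were already in culture before the exposure began. Each line comes from a single donor, and the study states that RNA came from independent culture experiments.

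Lysosomal hydrolases are made in the endoplasmic reticulum, most of them are tagged with mannose 6-phosphate, and they work at the low pH that the vacuolar proton pump maintains. TFEB and TFE3 are held in the cytosol by the kinase mTORC1 at the lysosome surface, and after their release they enter the nucleus and bind CACGTG-containing elements, the CLEAR motif, in the promoters of many lysosomal and autophagy genes. Their activity is set largely by phosphorylation and location, which RNA counts do not show.

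Total counts were 7168542 to 15178276 per library, and the genes of the list took 0.801% to 1.18% of them. The AG-205 library with the smallest total was HEC-1A replicate 3. T-HESC replicate 1 with AG-205 stood apart: on the main axis of variation within that line, which held 51.6% of the variance, it lay at 89.3 while the other 5 libraries lay between -37.9 and 2.77. The biological coefficient of variation was 10.1% among the HEC-1A libraries and 33.6% among the T-HESC libraries. The labels fitted the summed markers of both lines. The 6 epithelial genes summed to 1297 to 2047 CPM (counts scaled to library size) in HEC-1A and to 221 to 386 CPM in T-HESC. The 7 stromal genes summed to 14.0 to 23.1 CPM in HEC-1A and to 17900 to 35650 CPM in T-HESC. KRT19 did not separate the lines, with DMSO means of 100.1 CPM in HEC-1A and 106.1 CPM in T-HESC. In T-HESC with AG-205 its mean was 221 CPM, while KRT18 went from 154 to 55.9 CPM. The 7 stromal means of T-HESC moved both ways. COL1A1 went from 8701 to 4137 CPM, COL1A2 from 6544 to 4828 CPM and PDGFRB from 384 to 293 CPM. FN1 had means of 10000 and 9086 CPM, and THY1 of 180 and 172 CPM. VIM went from 4179 to 5016 CPM and COL6A3 from 1715 to 1847 CPM. The lowest COL1A1 value with AG-205, 1433 CPM, lay in replicate 1. The summed epithelial markers moved with AG-205 in HEC-1A, from 1297 to 1456 CPM with DMSO to 1980 to 2047 CPM. CLDN4 (mean 301 CPM with DMSO against 702 CPM with AG-205), KRT19 (100.1 against 213 CPM) and KRT8 (289 against 402 CPM) made up most of this, while EPCAM had means of 243 and 226 CPM, in the same order, and CDH1 of 82.1 and 86.1 CPM. FOXJ1, a transcription factor of ciliated cells, lay at 37.4 to 38.6 CPM with DMSO and at 24.6 to 26.8 CPM with AG-205 in HEC-1A, and at or below 0.0827 CPM in T-HESC. The part of these genes in the results below was not tested. Markers of leukocytes and endothelium were at or below 1.495 CPM in every library.

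In HEC-1A, 10 of the 47 lysosomal genes tested were higher with AG-205 and 1 was lower at an adjusted p under 0.05. Over all 14122 genes tested, 7.35% were called higher and 4.28% lower. The 10 were the sialidase NEU1, the lipase LIPA, the chloride exchanger CLCN6, CD63, ARSA, GRN, TPP1, ASAH1 and the pump genes ATP6V0A1 and ATP6AP1, with log2 fold changes from 0.33 to 1.56, and the gene that fell was CTSB. NEU1, LIPA and CLCN6 also passed the fold limit used in the study, a log2 fold change above 1, which 2.58% of all genes did. The median log2 fold change of the list was 0.18, against 0.01 over all genes tested, and 39 of the 47 values were positive. The 3 AG-205 libraries lay entirely above the 3 DMSO libraries for 25 genes of the list, where 16.4% of all genes did, and entirely below them for 4, where 15.0% did. In bulk RNA, fewer cells that express a gene and less of its RNA per cell cannot be told apart.

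In T-HESC, none of the 48 lysosomal genes tested was called by edgeR, where 0.0800% of the 13753 genes tested were called higher and 0% lower. At an unadjusted p under 0.05, 9 genes of the list were higher and none was lower, against 3.58% and 1.80% of all genes. DESeq2 called 2 genes of the list higher, NEU1 and SQSTM1 (4.08%), where it called 0.689% of all genes higher. The median log2 fold change was 0.29, against 0.02 over all genes tested, and 37 of the 48 values were positive. The groups did not overlap for 15 genes, 14 of them higher with AG-205 and CTSC lower, where 6.23% of all genes lay apart upward and 4.81% downward. The smaller number of calls went with wider errors: the median standard error (SE) over genes was 0.13 for HEC-1A, against 0.33 for T-HESC.

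**Figure D1:**
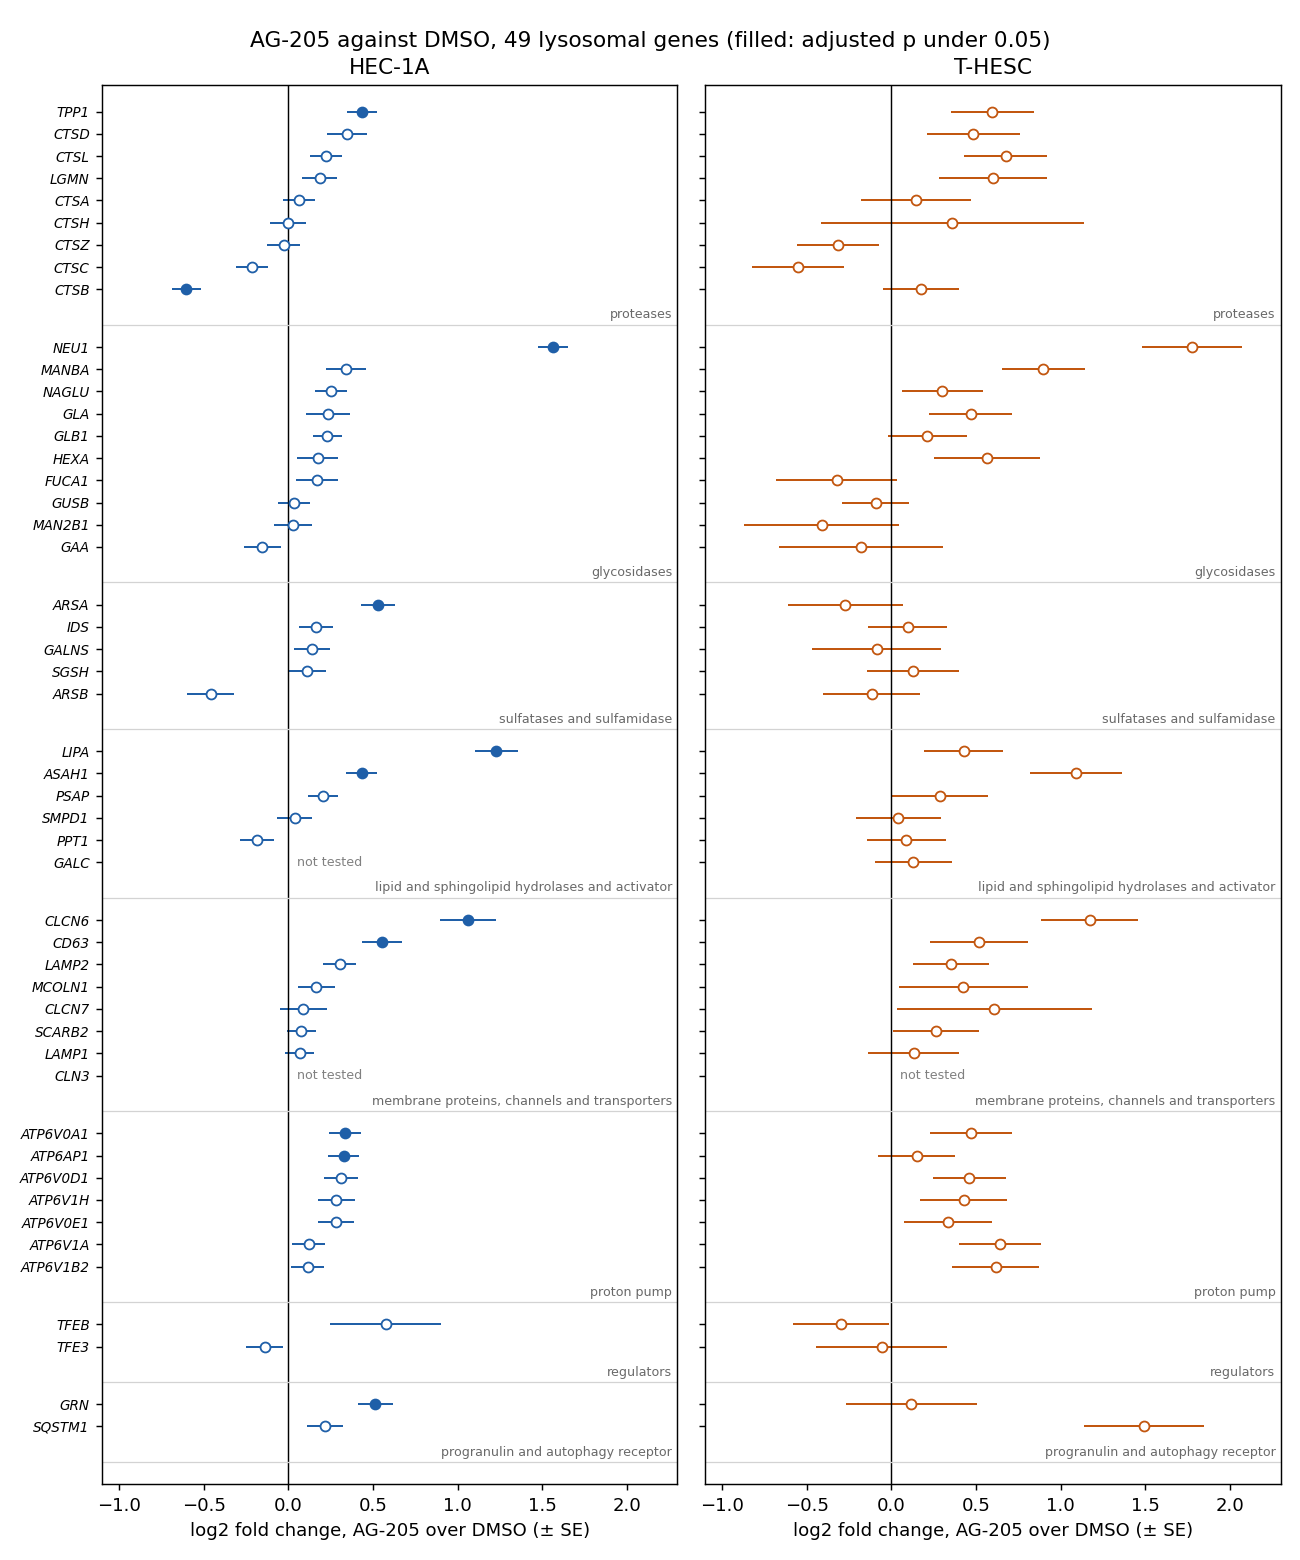
Log2 fold change of each of the 49 genes with AG-205 against DMSO in HEC-1A (left) and T-HESC (right), with its SE, ordered within each class by the value in HEC-1A. Filled points passed an adjusted p of 0.05: 11 in HEC-1A and none in T-HESC, where the error bars are wider; NEU1 lies farthest to the right in both panels.

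The HEC-1A count rested partly on single libraries. It was 4 without DMSO replicate 2, 5 without DMSO replicate 3 and 19 without AG-205 replicate 3, where 3.95%, 3.69% and 14.5% of all genes tested were called higher. It was 2 when the spread was estimated over all 12 libraries (0.905% of all genes) and 18 with library quality weights (14.1%). The share of all genes thus moved with the count of the list. Over 14 alternatives in HEC-1A, NEU1 and LIPA were called in 14, and ARSA, CLCN6 and CTSB in 13. ASAH1, CD63, GRN and TPP1 were called in 11, and ATP6AP1 and ATP6V0A1 in 8. In T-HESC the count was 3 without AG-205 replicate 1 (NEU1, SQSTM1 and CLCN6), 5 in the fit of all 12 libraries and 8 with the weights, beside 0.49%, 1.08% and 2.32% of all genes. AG-205 replicate 1 was the lowest of the 3 AG-205 libraries of T-HESC for 28 of the 48 genes tested, although it lay above every DMSO library for 22. P-values weigh the difference between groups against the spread between the libraries within a group.

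Among the glycosidases, which cut sugars from glycoproteins and glycolipids, NEU1 changed most. NEU1 is the lysosomal sialidase, which removes terminal sialic acids. In HEC-1A it stood at 98.0, 93.7 and 96.5 CPM with DMSO and at 282, 295 and 273 CPM with AG-205. Every AG-205 library lay far above every DMSO library, by 2.96-fold or 1.56 ± 0.09 on the log2 scale (SE, adjusted p = 1.49e-07, edgeR). In T-HESC NEU1 stood at 32.7, 36.6 and 37.6 CPM with DMSO and at 78.5, 168 and 124 CPM with AG-205. These groups did not overlap either, with the lowest AG-205 value in the library that stood apart, and the log2 fold change was 1.78 ± 0.30 (SE, adjusted p = 0.125). NEU1 was called in HEC-1A under each of 14 alternative analyses and in T-HESC under 5 of 14, where its adjusted p ran from 4.75e-05 to 0.880.

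NEU1 protein works in a complex with the protease CTSA and the galactosidase GLB1, whose RNAs did not pass the test in HEC-1A. CTSA had a log2 fold change of 0.06 ± 0.09 (SE) and GLB1 of 0.23 ± 0.08 (SE, adjusted p = 0.0997). The other 8 glycosidases besides NEU1 and GLB1 lay between -0.15 (GAA) and 0.34 (MANBA) in HEC-1A, and none was called. In T-HESC, MANBA, which cleaves mannose residues, stood at 26.8, 21.9 and 22.5 CPM with DMSO and at 33.0, 51.2 and 50.3 CPM with AG-205. Its groups did not overlap, and the log2 fold change was 0.90 ± 0.24 (SE, adjusted p = 0.479). FUCA1, GUSB, MAN2B1 and GAA had negative values in T-HESC, from -0.09 to -0.41, with SEs of 0.20 to 0.49.

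Of the lipid hydrolases, LIPA and ASAH1 were called in HEC-1A. LIPA, lysosomal acid lipase, frees cholesterol and fatty acids from cholesteryl esters and triglycerides taken up in lipoproteins. It stood at 22.7, 24.4 and 24.1 CPM with DMSO and at 47.1, 55.0 and 65.3 CPM with AG-205 in HEC-1A. The groups were well apart, at 1.23 ± 0.13 on the log2 scale (SE, adjusted p = 4.97e-05). In T-HESC, LIPA started higher, at 77.8, 92.6 and 89.3 CPM with DMSO, and stood at 90.2, 143 and 120 CPM with AG-205. One AG-205 value fell within the range of the DMSO libraries, and the log2 fold change was 0.43 ± 0.23 (SE, adjusted p = 0.993).

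ASAH1 encodes acid ceramidase, which splits ceramide into sphingosine and a fatty acid. In HEC-1A it stood at 198, 189 and 211 CPM with DMSO and at 255, 268 and 285 CPM with AG-205. The groups did not overlap, and the log2 fold change was 0.43 ± 0.09 (SE, adjusted p = 0.01002). The T-HESC libraries held 58.3, 57.5 and 51.2 CPM with DMSO and 88.3, 166 and 106 CPM with AG-205, again without overlap. The log2 fold change there was 1.09 ± 0.27 (SE, adjusted p = 0.435). PSAP, the precursor of the saposins that present sphingolipids to their hydrolases, had values of 0.20 and 0.29 in the epithelial and the stromal line, and SMPD1, acid sphingomyelinase, of 0.04 in each; PPT1, which removes fatty acids from proteins, had values of -0.19 and 0.09. None of these passed the test. GALC, galactosylceramidase, was not tested in HEC-1A, where 5 of 6 libraries held no count and AG-205 replicate 1 held 1; in T-HESC its value was 0.13 ± 0.23 (SE).

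Proteases moved in both directions. CTSB, a cysteine cathepsin that is among the most abundant lysosomal proteases, fell in HEC-1A, from 233, 222 and 224 CPM with DMSO to 152, 146 and 148 CPM with AG-205. The groups were far apart for the size of their spread, and the log2 fold change was -0.60 ± 0.08 (SE, adjusted p = 6.60e-04). T-HESC held far more, 1278, 1244 and 1257 CPM with DMSO and 1338, 1519 and 1453 CPM with AG-205. Every AG-205 library there lay above every DMSO library, by 0.18 ± 0.22 on the log2 scale (SE, adjusted p = 0.993).

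TPP1, an aminopeptidase that trims tripeptides, stood at 47.3, 44.6 and 47.2 CPM with DMSO and at 61.7, 64.2 and 61.6 CPM with AG-205 in HEC-1A. It was called at 0.43 ± 0.09 on the log2 scale (SE, adjusted p = 0.00767). The T-HESC values were 145, 130 and 137 CPM and 149, 242 and 239 CPM, with the lowest AG-205 value just above the DMSO libraries (log2 fold change 0.60 ± 0.25 SE, adjusted p = 0.880). The remaining proteases were not called: in HEC-1A they ran from -0.22 (CTSC) to 0.35 (CTSD), and in T-HESC from -0.55 (CTSC) to 0.67 (CTSL). CTSC, which activates granule serine proteases, lay below its DMSO libraries in all 3 AG-205 libraries of both lines, without passing the test in either.

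Sulfatases remove sulfate groups from glycosaminoglycans and sulfolipids. ARSA, which acts on sulfatide, was the only one of the 5 called in HEC-1A, at 29.2, 28.3 and 26.7 CPM with DMSO and 43.1, 39.4 and 38.8 CPM with AG-205. Its groups did not overlap, and the log2 fold change was 0.53 ± 0.10 (SE, adjusted p = 0.00445). In T-HESC the groups overlapped widely, at 69.5, 58.0 and 33.8 CPM with DMSO and 42.0, 32.9 and 60.3 CPM with AG-205 (log2 fold change -0.27 ± 0.34 SE). ARSB, which acts on dermatan sulfate, had a value of -0.46 ± 0.14 in HEC-1A (SE, adjusted p = 0.0515), with all AG-205 libraries below those with DMSO. IDS, SGSH and GALNS lay between 0.11 and 0.16 in HEC-1A. IDS shares 75.0% of its annotated exon length with another gene on the same strand, so its counts are uncertain.

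All 7 membrane proteins, channels and transporters tested had positive values in both lines. CLCN6, a chloride and proton exchanger of late endosomes, was called in HEC-1A, at 18.2, 20.7 and 17.8 CPM with DMSO and 41.0, 48.6 and 28.1 CPM with AG-205. The smallest AG-205 library gave the lowest of these, still above every DMSO library, and the log2 fold change was 1.06 ± 0.17 (SE, adjusted p = 0.00140). In T-HESC CLCN6 stood at 20.8, 21.1 and 26.1 CPM with DMSO and 32.4, 62.3 and 60.1 CPM with AG-205, also without overlap. The log2 fold change was 1.17 ± 0.29 (SE, adjusted p = 0.417). Over 14 alternatives its adjusted p ran from 0.00228 to 1.000 and passed in 4.

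CD63, a tetraspanin of late endosomes and exosomes, stood at 375, 324 and 317 CPM with DMSO and 437, 483 and 568 CPM with AG-205 in HEC-1A. It was called at 0.55 ± 0.12 on the log2 scale (SE, adjusted p = 0.00893). T-HESC held 1485, 1558 and 1321 CPM and 2753, 1910 and 1620 CPM. All AG-205 libraries lay above the DMSO libraries there too, with the highest value in the library that stood apart (log2 fold change 0.52 ± 0.29 SE, adjusted p = 0.993). LAMP1, the heavily glycosylated protein that lines the lysosome membrane and is its usual marker, showed little difference. It stood at 367, 363 and 358 CPM with DMSO and 403, 368 and 367 CPM with AG-205 in HEC-1A. Those groups did not overlap but lay close, at 0.07 ± 0.09 on the log2 scale (SE, adjusted p = 0.685). In T-HESC the groups overlapped, at 645, 601 and 548 CPM and 477, 663 and 848 CPM (log2 fold change 0.13 ± 0.27 SE, or -0.078 without AG-205 replicate 3). In the epithelial and the stromal line LAMP2 had values of 0.30 and 0.35, the calcium channel MCOLN1 of 0.17 and 0.43, the receptor SCARB2, which carries glucocerebrosidase, of 0.08 and 0.27, and the chloride exchanger CLCN7 of 0.09 and 0.61. In T-HESC replicate 1 with AG-205, CLCN7 stood at 27.4 CPM against 155 and 193 CPM in the other two. CLN3 was not tested in either line, at 2 to 14 counts per library. It shares 25.3% of its annotated exon length with another gene on the same strand, so its counts are uncertain.

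The proton pump couples ATP hydrolysis in its V1 sector to proton transport through its V0 sector. All 7 of its genes had positive values in both lines, from 0.11 to 0.33 in HEC-1A and from 0.15 to 0.64 in T-HESC. ATP6V0A1, the membrane subunit through which protons pass, was called in HEC-1A, at 77.0, 77.0 and 73.4 CPM with DMSO and 98.3, 102 and 85.6 CPM with AG-205 (log2 fold change 0.33 ± 0.09 SE, adjusted p = 0.0366). The accessory gene ATP6AP1, needed for pump assembly, was called as well, at 161, 150 and 146 CPM and 204, 193 and 176 CPM (log2 fold change 0.33 ± 0.09 SE, adjusted p = 0.0369). Both had groups that did not overlap, and both were called when replicate 3 with AG-205 was left out and not when any other library was. ATP6V0D1, ATP6V1H and ATP6V0E1 were 0.28 to 0.31 higher without passing the adjusted threshold.

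ATP6V1A, the catalytic subunit, stood at 70.0, 75.3 and 74.0 CPM with DMSO and 71.8, 88.7 and 77.3 CPM with AG-205 in HEC-1A. These groups overlapped (log2 fold change 0.12 ± 0.10 SE, adjusted p = 0.490). Its T-HESC values were 63.6, 75.0 and 89.0 CPM and 120, 143 and 95.9 CPM, without overlap. The log2 fold change was 0.64 ± 0.24 (SE, adjusted p = 0.763). Summed over the 7 genes, the pump stood at 597 to 638 CPM with DMSO and 732 to 740 CPM with AG-205 in HEC-1A, and at 801 to 870 and 1056 to 1156 CPM in T-HESC.

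TFEB and TFE3, the transcription factors that act on these genes, were not called in either line. TFEB was scarce in HEC-1A, at 1.23, 1.67 and 1.88 CPM with DMSO and 3.14, 2.43 and 1.20 CPM with AG-205. The AG-205 values spanned the DMSO range, and the log2 fold change was 0.57 ± 0.33 (SE, adjusted p = 0.293). TFEB was less scarce in T-HESC, at 9.02, 9.60 and 7.38 CPM and 7.58, 5.48 and 8.30 CPM, which overlapped (log2 fold change -0.30 ± 0.28 SE). TFE3 stood at 107, 108 and 106 CPM with DMSO and 105, 105 and 80.0 CPM with AG-205 in HEC-1A, with the lowest value in the smallest library (log2 fold change -0.14 ± 0.11 SE, adjusted p = 0.444). In T-HESC its AG-205 values ran from 85.6 CPM in replicate 1 to 187 and 277 CPM, around 184, 168 and 212 CPM with DMSO.

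GRN, the precursor of progranulin and the lysosomal granulins, was called in HEC-1A, at 503, 462 and 462 CPM with DMSO and 761, 678 and 598 CPM with AG-205. The groups did not overlap, and the log2 fold change was 0.51 ± 0.10 (SE, adjusted p = 0.00730). In T-HESC GRN varied as widely within groups as between them, at 670, 581 and 357 CPM and 365, 509 and 895 CPM. SQSTM1, the autophagy receptor p62, stood at 1524, 1471 and 1470 CPM with DMSO and 1680, 1965 and 1529 CPM with AG-205 in HEC-1A (log2 fold change 0.21 ± 0.11 SE, adjusted p = 0.228). In T-HESC it stood at 457, 512 and 578 CPM with DMSO and 811, 1505 and 2098 CPM with AG-205. The groups did not overlap there, although the AG-205 libraries differed widely, at 1.49 ± 0.36 on the log2 scale (SE, adjusted p = 0.394). Over 14 alternatives its adjusted p ran from 0.00283 to 1.000. MRNIP, 1 of 2 genes that overlap SQSTM1 on the opposite strand, covers 21.0% of its exon length. The strand setting of the counting is not given in the sources used here.

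**Figure D2:**
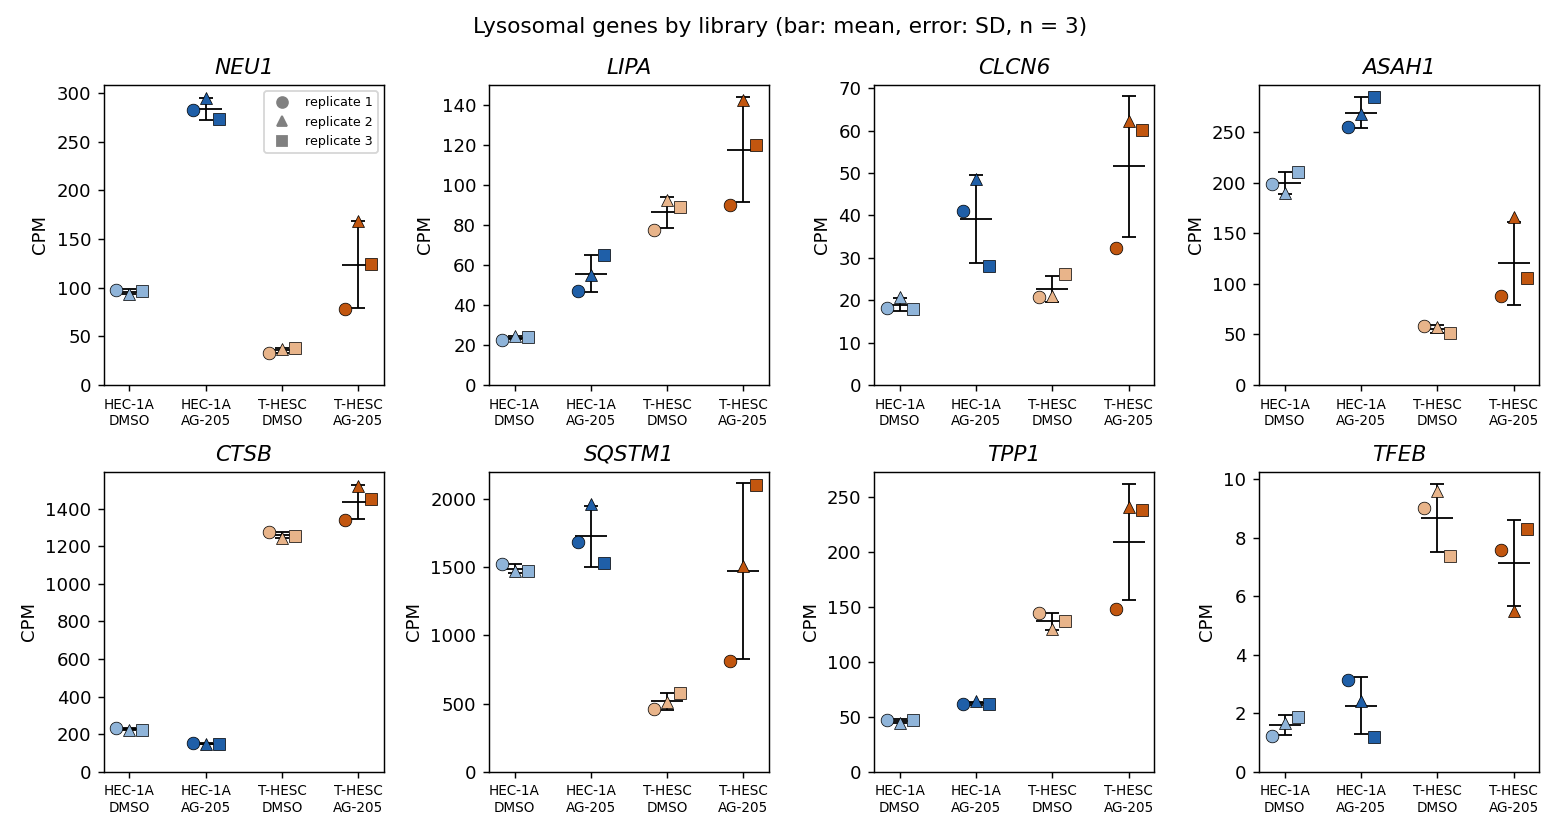
Level in CPM of 8 genes in each of the 12 libraries, by cell line and treatment, with the mean and SD of each group of 3. NEU1, CLCN6 and ASAH1 lie above their DMSO libraries in every AG-205 library of both lines, CTSB falls in HEC-1A and lies slightly higher in T-HESC, and SQSTM1 spreads from 811 to 2098 CPM in T-HESC with AG-205.

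Summed over the 49 genes, HEC-1A stood at 6990 to 7299 CPM with DMSO and 8038 to 8473 CPM with AG-205, a ratio of means of 1.17. T-HESC stood at 9249 to 10607 CPM and 11960 to 14242 CPM, a ratio of 1.28, or 1.20 without SQSTM1. In neither line did the summed levels overlap. By class, the summed glycosidases, lipid hydrolases, membrane proteins, pump genes and the pair of GRN and SQSTM1 were apart and higher with AG-205 in HEC-1A, with ratios of 1.18 to 1.23. In T-HESC the proteases, lipid hydrolases, membrane proteins, pump genes and the pair of GRN and SQSTM1 were apart and higher, with ratios from 1.07 to 1.96. Some of these differences rested on 1 gene, the one whose mean level differed most, which was left out of each class after the values were seen. Without NEU1 the other 9 glycosidases had a ratio of 1.05 in HEC-1A and the groups overlapped. Without CD63 the other 7 membrane genes overlapped between groups in both lines, at ratios of 1.09 (HEC-1A) and 1.22 (T-HESC). GRN alone, without SQSTM1, had a ratio of 1.43 and stayed apart for HEC-1A, while its T-HESC groups overlapped at 1.1. The lipid hydrolases without PSAP stayed apart in both lines, with a ratio of 1.24 in each, as did the pump genes without the member that differed most, with ratios of 1.19 in HEC-1A (without ATP6AP1) and 1.33 in T-HESC (without ATP6V0E1). All proteases together had a ratio of 0.964 in HEC-1A, or 1.07 without CTSB, and the groups overlapped either way. In T-HESC the protease ratio was 1.07, or 1.19 without CTSC, with the groups apart either way. The sulfatases had a ratio of 1.00 in T-HESC. These sums are given without a test, and abundant genes weigh most in them.

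**Figure D3:**
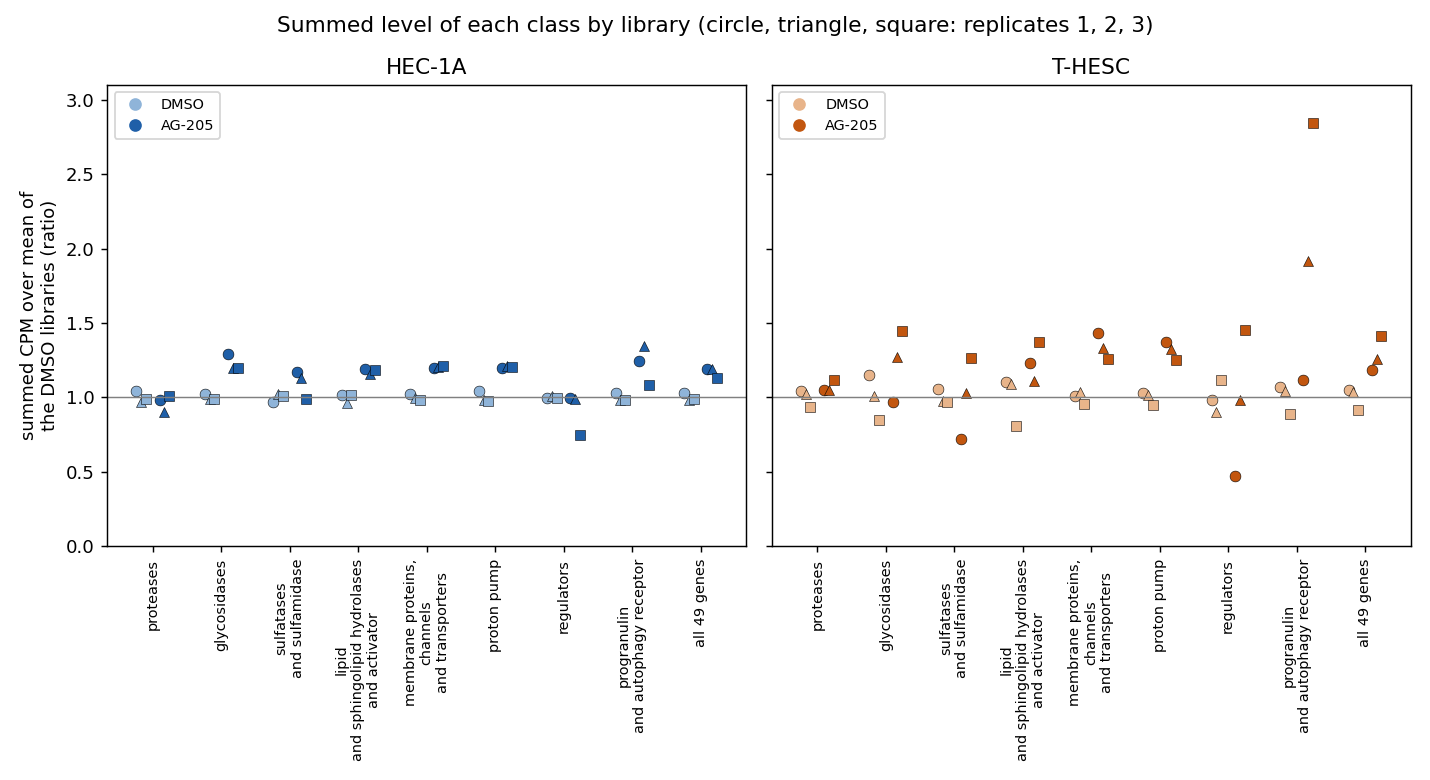
Summed CPM of each class of lysosomal genes in every library, divided by the mean of the DMSO libraries of the same line, so that 1 is the DMSO mean. In HEC-1A the pump genes and the membrane proteins sit close to 1.20 in all 3 AG-205 libraries; in T-HESC they are higher in all 3 as well, while the pair of GRN and SQSTM1 reaches 2.85 in replicate 3.

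The difference of the AG-205 effect between the lines was tested with an interaction term over 12 libraries and 16132 genes. None of the 48 genes of the list tested was called by edgeR, where 0.174% of all genes were, and 4 had an unadjusted p under 0.05: CTSB, SQSTM1 and ASAH1, with a higher effect in T-HESC (2.73% of all genes), and LIPA, with a lower effect (3.63%). The effect on CTSB was 0.79 ± 0.19 higher in T-HESC than in HEC-1A (log2, SE, adjusted p = 0.231), with every AG-205 library below those with DMSO in HEC-1A and above them in T-HESC. DESeq2 called CTSB in this test (adjusted p = 2.71e-07), where it called 0.21% of all genes higher. The adjusted p of CTSB over 19 alternatives ran up to 0.777. The difference was 1.30 ± 0.39 for SQSTM1 (SE, adjusted p = 0.418) and -0.79 ± 0.26 for LIPA (SE, adjusted p = 0.539). Without T-HESC replicate 1 with AG-205, CTSB and SQSTM1 were called, at adjusted p = 0.0247 and 0.00601, beside 0.264% of all genes called higher. The NEU1 and CLCN6 effects differed by 0.24 ± 0.31 and 0.13 ± 0.36 (SE), less than their errors.

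The effects in HEC-1A and T-HESC come from separate libraries and can be set side by side. Of the 47 genes tested in both lines, 38 had the same sign (80.9%), 33 of them positive, and across genes the Spearman correlation of the log2 fold changes was 0.505. Over all 12008 genes tested in both lines, 58.3% had the same sign and the correlation was 0.241. Genes are not independent replicates, so these are descriptions.

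Without AG-205 the lines differed in most of these genes. With DMSO, 28 of 48 genes tested were higher in T-HESC and 11 were higher in HEC-1A, where 36.1% and 36.0% of the 14789 genes tested were called. The median of the list was 0.57, against -0.02 over all genes. Upper-quartile scaling moved the median of all genes to -0.17 and that of the list to 0.42, so that the list stayed 0.59 above all genes. By class, 7 of 9 proteases, 4 of 5 sulfatases, 5 of 7 membrane proteins and both transcription factors were higher in T-HESC, whereas among 10 glycosidases 3 were higher and 5 lower.

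Among genes higher in T-HESC, GALC, which breaks down galactosylceramide of myelin and other membranes, stood out. No HEC-1A library with DMSO held a count, while T-HESC held 21.6, 23.5 and 24.7 CPM. Against a floor of 3 counts per library this was at least 92.6-fold higher. SMPD1 stood at 24.6, 25.0 and 22.9 CPM in HEC-1A and 245, 215 and 170 CPM in T-HESC (log2 fold change 3.11 ± 0.15 SE, adjusted p = 2.42e-07). CTSB was 5.53-fold higher in T-HESC at the DMSO levels given above (log2 fold change 2.47 ± 0.09 SE, adjusted p = 4.20e-08), and TFEB 5.39-fold (log2 fold change 2.43 ± 0.23 SE, adjusted p = 1.81e-05). The groups did not overlap for any of these 4, which were chosen for their large differences. Of all genes tested, 38.2% lay apart in this direction.

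Among genes lower in T-HESC, CTSH, a cathepsin with aminopeptidase activity, stood at 50.9, 51.7 and 46.3 CPM in HEC-1A and at 1.43, 1.41 and 0.299 CPM in T-HESC. The T-HESC libraries held 3 to 19 counts of it, and the log2 fold change was -5.51 ± 0.30 (SE, adjusted p = 5.32e-07). ASAH1 was 3.61-fold lower in T-HESC (log2 fold change -1.85 ± 0.10 SE, adjusted p = 4.04e-07) and SQSTM1 2.91-fold (log2 fold change -1.54 ± 0.11 SE, adjusted p = 2.90e-06), at the levels given above. GAA, acid glucosidase, which degrades glycogen in the lysosome, stood at 316, 320 and 304 CPM in HEC-1A and 131, 104 and 52.5 CPM in T-HESC (log2 fold change -1.72 ± 0.28 SE, adjusted p = 5.12e-04). NEU1, ASAH1 and SQSTM1 thus started lower in T-HESC, and LIPA 3.62-fold higher. With AG-205, NEU1 reached 124 ± 44.9 CPM (SD, n = 3) in T-HESC against 96.0 ± 2.15 CPM in HEC-1A with DMSO.

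Per exon length, in TPM (counts scaled to exon length and library size), PSAP was the most abundant gene of the list in HEC-1A with DMSO, at 1074 ± 24.9 (SD, n = 3), followed by SQSTM1 at 811 ± 17.04, CD63 at 573 ± 31.5 and GRN at 554 ± 6.78. CD63 and GRN lay within their spread of each other. The length used is that of all annotated exons of a gene together, 3115 bases for PSAP and 7535 for SQSTM1. The ranks depend on this length. In CPM the order of these genes was reversed, with means of 1489 for SQSTM1 and 815 for PSAP in HEC-1A with DMSO. In T-HESC CD63 came first at 2141 ± 150 TPM, followed by PSAP at 1124 ± 233 and GRN at 541 ± 156. The median of the list was 36.8 TPM in the epithelial line and 58.0 TPM in the stromal line. NEU1 ranked 15 of the 49 genes in the epithelial line and 36 in the stromal line, and TFEB stood at 0.979 and 4.59 TPM, far below TFE3 at 104 and 160 TPM.

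**Figure D4:**
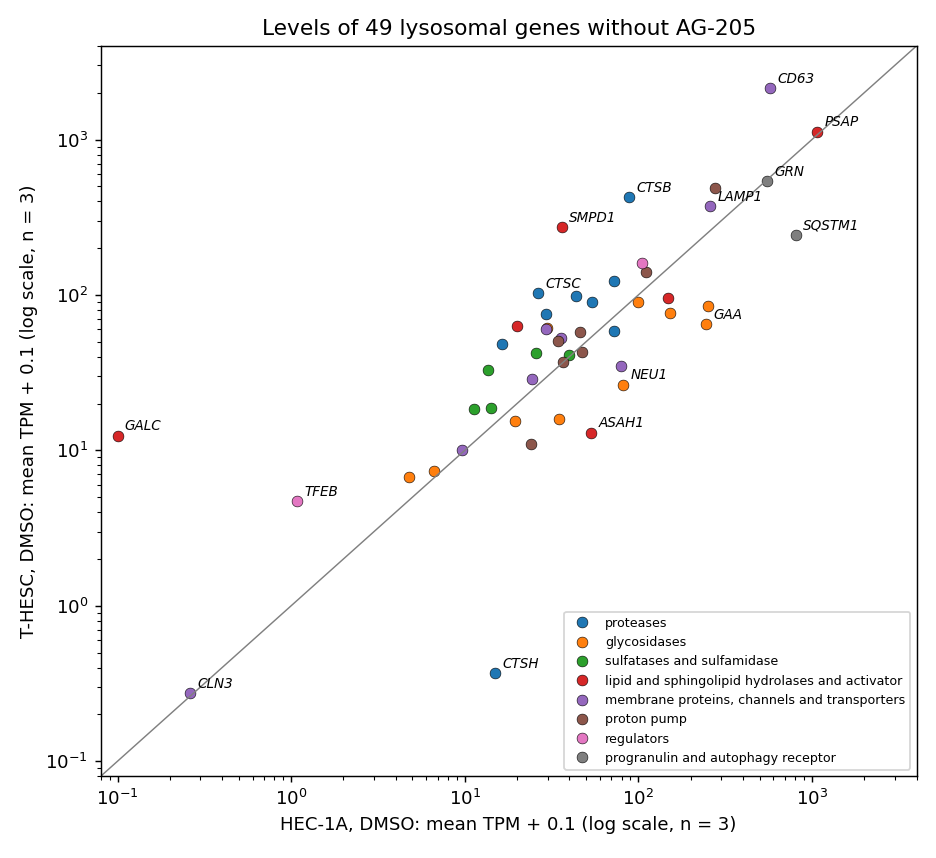
Mean TPM with DMSO of each gene in HEC-1A (horizontal) and T-HESC (vertical), both on log axes with 0.1 added, coloured by class; the line marks equal levels. GALC at the left edge held no count in HEC-1A, CTSH lies far below the line, and CD63, CTSB and SMPD1 lie above it.

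Another 97 genes of the same pathways were read the same way, and 16 of the 90 tested were higher in HEC-1A with AG-205 (17.8%) and none was lower, against 7.35% and 4.28% of all genes tested. The lists of the pump subunits (8.33%) and of mannose 6-phosphate tagging (9.09%) lay near the share of all genes. Among other hydrolases and activators 3 of 22 (13.6%) were higher, led by IDUA (0.77), which degrades heparan and dermatan sulfate, and GM2A (0.38), the activator of GM2 breakdown. Among other membrane proteins 3 of 14 were, led by PIP4P1 (0.66), a phosphoinositide phosphatase, and the sialic acid exporter SLC17A5 (0.56). The other pump subunits held 1 of 12, ATP6V1E1 (0.36), and the mannose 6-phosphate list 1 of 11, GNPTG (0.32), a subunit of the tagging enzyme. Of 13 genes of the TFEB family and of mTORC1 control 3 were higher, led by the Rag GTPase gene RRAGC (0.71) and FLCN (0.53), which acts on that GTPase. Of 18 autophagy genes 5 were, led by WIPI1 (1.29), which binds the forming autophagosome, and the receptor OPTN (0.77). In T-HESC edgeR called none of 91. At an unadjusted p under 0.05, 17 were higher (18.7%) and 1 was lower, the acid phosphatase gene ACP2 (-0.66), against 3.58% and 1.80% of all genes. WIPI1 and RRAGC had values of 1.07 ± 0.34 and 1.42 ± 0.48 (SE).

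Promoter sequence was examined because CACGTG is the core of the motif TFEB and TFE3 bind. RefSeq windows of 250 bases before to 50 bases after the start were at hand for 35 of the 49 genes. CACGTG, which reads the same on both strands, lay in a window of 13 of the 35 (37.1%) and of 8.77% of 27305 genes with a window. The longer TCACGTGA, which contains it, lay in 8 (22.9%, against 1.18%). TCACNCCAC, a form of the sterol response element searched on both strands, lay in 1 (TFEB), against 1.39% of genes. A gene counted if any of its windows held the motif, and the 27305 genes were not limited to those expressed in these lines. By window, CACGTG lay in 14 of 53 windows of the list (26.4%), against 7.26% of all 35116 windows. The stretches below are from RefSeq on GRCh38.p14, 5′ to 3′ on the strand of the gene, with CACGTG in capitals; the first pair belongs to genes past the fold limit in HEC-1A, and the others to genes with the motif that were not called in either line.
NEU1 (chr6:31862892-31862971, minus strand): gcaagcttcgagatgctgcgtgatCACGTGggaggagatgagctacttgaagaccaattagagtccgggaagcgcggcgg
CLCN6 (chr1:11806131-11806210, plus strand): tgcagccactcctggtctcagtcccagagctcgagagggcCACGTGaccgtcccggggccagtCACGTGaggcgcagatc
MCOLN1 (chr19:7522544-7522623, plus strand): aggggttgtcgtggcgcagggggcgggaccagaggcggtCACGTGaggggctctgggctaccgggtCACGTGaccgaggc
GAA (chr17:80101481-80101580, plus strand): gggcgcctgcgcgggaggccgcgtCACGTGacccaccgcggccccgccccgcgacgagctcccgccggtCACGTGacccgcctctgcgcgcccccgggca
CTSA (chr20:45891255-45891334, plus strand): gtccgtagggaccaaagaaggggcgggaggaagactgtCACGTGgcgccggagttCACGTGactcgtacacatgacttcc
LAMP1 (chr13:113297039-113297238, plus strand): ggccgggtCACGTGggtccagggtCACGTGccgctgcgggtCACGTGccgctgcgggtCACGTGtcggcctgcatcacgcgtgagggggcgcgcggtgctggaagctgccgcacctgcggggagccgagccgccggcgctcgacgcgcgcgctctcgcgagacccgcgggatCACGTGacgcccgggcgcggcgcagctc

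The presence of CACGTG did not order the changes in HEC-1A. The 12 tested genes with it had a median log2 fold change of 0.15 and 3 were called higher, and the 21 without it had a median of 0.17 with 5 called. In T-HESC the medians were 0.44 over 12 genes and 0.12 over 22. NEU1 carries a single copy 126 bases before the start and was 2.96-fold higher in HEC-1A. LAMP1 carries 6 copies in its window, 5 of them in the stretch shown, and had a value of 0.07. LIPA, called in HEC-1A, had none in its 3 windows. A match in these letters is a description of the sequence and not of binding.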

How the data were processed

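RNA was sequenced in pairs of reads in 12 libraries. The authors used Trimmomatic 0.38 for trimming, HISAT2 2.1.0 for alignment to GRCh38 and featureCounts (Subread 2.0.0) for counting per Ensembl gene; the deposited values are whole-number counts without normalization. Strandedness and the treatment of multi-mapped reads are not given in the sources used here, so counts of overlapping genes (12 members on the same strand, 20 on the opposite strand) and of the 7 members with named pseudogenes are less certain.

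Counts were fitted with edgeR 4.0.16 (R 4.3.3): TMM scaling, filterByExpr, quasi-likelihood tests and p-values adjusted by Benjamini-Hochberg over every gene that passed the filter, called at an adjusted p under 0.05. Comparisons were AG-205 against DMSO within each line (6 libraries), the difference of these effects (12) and the lines with DMSO (6). DESeq2 1.42.0, limma 3.58.1 library weights, other scalings and filters, and leaving out each library were alternatives. CPM used TMM factors of all 12 libraries, and TPM the exon length of GENCODE 44. With 3 libraries against 3, an exact permutation test cannot go below 0.1. The members and lists were chosen with earlier results of these data known. Genes shown in every library were up to 3 called members per class in HEC-1A with the largest change, TFEB, TFE3, LAMP1, ATP6V1A, the 5 smallest p in T-HESC, the 3 in the difference and the 4 largest in each direction at baseline; of other genes, up to 2 per list and direction were named. CLCN7 in T-HESC was singled out after its values were seen. The number of counts limits the precision of TFEB, CTSH, CLN3 and GALC. The labels do not state whether equal replicate numbers share a culture experiment. Correlations with 3 libraries per group could not settle it, so the main fits carried no replicate block. The procedure was tested on simulated data with genes changed by 2 on the log2 scale. For HEC-1A (13875 genes) 192 of 193 such genes were recovered, with 10 false calls. The T-HESC test (13458 genes) found 138 of 193, with 3 false calls. The difference test found 120 of 191 (5 false calls), and the baseline test 189 of 195 (16 false calls). Recovery of smaller changes, which include every call of the list for HEC-1A, was not tested. Plots were drawn with matplotlib 3.10.9.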

Additional observations from a re-analysis of the deposited data

Results flagged for a closer look

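CTSB fell in HEC-1A (adjusted p = 6.60e-04, edgeR), where every AG-205 library lay below the DMSO libraries. In T-HESC every AG-205 library lay above the DMSO libraries, as for 6.23% of all genes. The log2 fold change there was 0.18 ± 0.22 (SE) and did not pass the test (adjusted p = 0.993, edgeR). The effect in T-HESC was 0.79 higher than in HEC-1A on the log2 scale. The test of this difference did not pass in edgeR (adjusted p = 0.231) and passed in DESeq2 (adjusted p = 2.71e-07). Over 19 alternatives the difference lay between 0.71 and 0.85 and passed in 3.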

How the results depend on the processing

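Of the genes chosen by rule, none changed direction in HEC-1A, in the difference or at baseline under any alternative run; NEU1 and LIPA stayed called in HEC-1A under all of them at the same threshold. In HEC-1A, lowered genes of the list were 2 with DESeq2, RLE scaling, no filter or a filter at 1 CPM. Over all genes, 706 of 14081, 640 of 14122, 718 of 30803 and 675 of 13741 were then lower. Library weights gave 18 higher and 4 lower, beside 14.1% of all genes higher and 1722 of 14122 lower. A fit of all 12 libraries gave 2 and 0, beside 0.905% of all genes higher and 8 of 16132 lower. Leaving out single libraries gave 4 to 19 higher and 1 to 4 lower, beside 3.69% to 14.5% of all genes higher and 142 to 1922 genes lower. In T-HESC, genes higher and past the fold limit were 2 and 2 with DESeq2 and 3 and 3 without a filter. They were 8 and 5 with library weights (1 lower) and 5 and 4 with all 12 libraries. The shares of all genes called higher were 0.689%, 0.495%, 2.32% and 1.08%, in the same order, and the weights called 131 of 13753 genes lower. Leaving out single libraries gave 0 to 3 for both, beside 0% to 0.49% of all genes called higher. For the difference between lines, DESeq2 called 1 higher and the unfiltered fit 1 (1 past the fold limit). Library weights called 5 higher and 2 lower (2 past it), and leaving out single libraries 0 to 2 (0 to 1 past it). The shares of all genes called higher were 0.21%, 0.154%, 1.57% and 0% to 0.264%, in the same order. The weights called 276 of 16132 genes lower. In T-HESC TFE3 turned to 0.084 with library weights and ran from -0.47 to 0.28 without single libraries, and LAMP1 from -0.078 to 0.31. Scaled by raw totals, the summed level was 8072 CPM with DMSO and 9584 CPM with AG-205 in HEC-1A, and 8936 and 11203 CPM in T-HESC. The causes of these shifts were not tested. The labels do not tie same-numbered libraries to an experiment, and their correlations ran from -0.528 to 0.233. A replicate block left 10 genes of the list higher and 1 lower in HEC-1A, beside 6.56% of all genes higher and 514 of 14122 lower. It gave 0 calls in the list for T-HESC and for the difference, beside 0.0654% and 0% of all genes called higher. Few or no counts limit what can be said of GALC in HEC-1A, CLN3 in both lines and CTSH in T-HESC.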
